A study of Rattus norvegicus with 7 samples.

Results

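Oxygen sensing in rat synovium was followed through 10 genes, selected by symbol from the 20660 genes of the count table: Hif1a and Epas1, which encode alpha subunits of the hypoxia-inducible factors, and Vegfa, Egln1, Egln3, Mxi1, Bnip3, Ndrg1, Adm and Slc2a1. All 10 symbols were found, each on 1 line, and all 10 passed the filter on low counts. The tissue was synovium, the soft lining of joints, from male SD rats aged 3 months. In the MIA group (4 libraries, numbered 1 to 4) the right knee had received an intra-articular injection of MIA at 10 mg per kg in 0.1 mL, 4 weeks before the tissue was taken. The labels do not spell MIA out; it is commonly monosodium iodoacetate, which blocks glycolysis and is injected to model knee osteoarthritis. The control group (3 libraries, numbered 2, 3 and 4) had no treatment, so the injection itself and the compound cannot be told apart. The protocol opens with intraperitoneal sodium pentobarbital and does not say whether the untreated rats received it too. Synovium was taken from each rat, but the labels do not state that every library is a separate rat, so p-values measure only the spread between these samples, which may be technical. The comparison asks how hypoxia genes differed between MIA and untreated synovium.

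Cells sense oxygen mainly through the stability of the HIF alpha proteins. When oxygen is present, prolyl hydroxylases of the Egln family mark the alpha subunits for destruction by the von Hippel-Lindau ubiquitin ligase. When oxygen is short, the alpha subunits persist, pair with Arnt, and bind DNA at sites with the core ACGTG or GCGTG, where they can switch on genes of glucose uptake, glycolysis, vessel growth and mitochondrial turnover. The mRNA of an alpha subunit therefore does not measure its protein, which was not assayed here. Both Egln1 and Egln3 are also known HIF targets, and Hif1a is expressed in many cell types whereas Epas1 is high in endothelium.

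The core letters were looked up in the 250 bases before the start of each gene, to show what the promoters of genes that moved in different directions hold. RefSeq promoters (build GRCr8, which is not the build named for the counts) were matched for 9 of the 10 genes by symbol, with 10 windows because Vegfa has 2 starts. The 5 windows below belong to both alpha subunits, to Slc2a1, which rose, and to Bnip3 and Egln3, which fell. They are written 5′ to 3′ on the strand of the gene, and capitals mark ACGTG or GCGTG on either strand, with overlapping matches merged into 1 block.
Hif1a, chr6:98359648-98359897, plus strand: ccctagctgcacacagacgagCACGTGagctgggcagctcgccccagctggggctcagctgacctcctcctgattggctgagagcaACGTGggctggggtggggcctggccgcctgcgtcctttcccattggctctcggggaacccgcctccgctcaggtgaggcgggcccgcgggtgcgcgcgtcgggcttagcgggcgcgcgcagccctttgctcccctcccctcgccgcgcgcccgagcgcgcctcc
Epas1, chr6:13624730-13624979, minus strand: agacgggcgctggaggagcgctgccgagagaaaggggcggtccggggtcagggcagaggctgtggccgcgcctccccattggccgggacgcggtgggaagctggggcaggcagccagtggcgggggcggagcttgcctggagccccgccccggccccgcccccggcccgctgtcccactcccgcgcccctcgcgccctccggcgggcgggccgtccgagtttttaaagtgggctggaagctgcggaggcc
Slc2a1, chr5:138002272-138002521, plus strand: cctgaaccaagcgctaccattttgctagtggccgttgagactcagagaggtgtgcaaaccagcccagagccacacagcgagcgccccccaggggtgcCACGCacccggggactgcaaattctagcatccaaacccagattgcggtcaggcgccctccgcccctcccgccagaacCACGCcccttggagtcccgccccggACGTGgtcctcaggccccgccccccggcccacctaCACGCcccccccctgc
Bnip3, chr1:203154963-203155212, minus strand: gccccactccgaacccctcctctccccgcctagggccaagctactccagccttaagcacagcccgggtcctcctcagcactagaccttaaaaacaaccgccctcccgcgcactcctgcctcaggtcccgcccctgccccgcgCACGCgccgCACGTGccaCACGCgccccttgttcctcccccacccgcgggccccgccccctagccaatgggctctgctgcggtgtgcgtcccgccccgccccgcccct
Egln3, chr6:77411016-77411265, minus strand: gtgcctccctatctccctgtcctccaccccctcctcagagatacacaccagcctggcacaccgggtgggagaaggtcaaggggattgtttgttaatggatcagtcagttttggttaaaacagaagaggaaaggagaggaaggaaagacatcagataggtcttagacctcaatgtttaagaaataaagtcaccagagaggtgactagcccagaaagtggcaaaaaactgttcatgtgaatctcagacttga

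The Slc2a1 window held 4 blocks of these letters and the Bnip3 window 3. Such a block was present in 36.7% of all 33469 promoter windows of this length, and 3 or more blocks in 4.30%. The Hif1a window held 2 blocks, 1 of which is the palindrome CACGTG, which matches ACGTG on both strands, is also the E-box that Myc and Max recognise, and occurs in 5.59% of all windows. The Bnip3 window held the same palindrome. Egln1 and Mxi1 had 1 block each, whereas the windows of Epas1, Egln3, Adm and both Vegfa starts had none of these letters. The share of G and C was 68.4% (Slc2a1) to 85.2% (Egln1) in windows with a block. In windows with none it was 46.8% (Egln3) to 76.8% (Epas1). The shares over all windows were not matched for G and C. A match is a run of letters in this window and no measured binding. Bases outside the window were not searched, so an empty window does not show that a gene lacks such sites. Windows with a block belonged to genes that rose (Hif1a, Slc2a1) and to genes that fell (Egln1, Mxi1, Bnip3), and windows with none to genes that fell (Vegfa, Egln3) or were not called (Epas1, Adm).

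Total counts ran from 14119648 to 16261089 in MIA libraries and from 13870822 to 15819900 in control libraries. Genes of a skeletal muscle list (17 found) took 2.37% ± 1.84 of the counts in MIA libraries (SD, n = 4) and 13.3% ± 1.05 in control libraries (SD, n = 3). Their summed level was 22156, 344, 36997 and 21993 CPM (counts scaled to a common library size with TMM factors) in MIA 1 to 4, and 145562 to 180711 CPM in controls, and all 17 had groups that did not overlap (3 of 17 lower at an adjusted p under 0.05). None of them was at 0 throughout a group. Of all 14054 genes tested, 49.2% had groups that did not overlap (24.4% with MIA lower). The gene of this list with the highest mean over all libraries, the muscle actin gene Acta1, ran from 68.9 CPM (MIA 2) to 9982 CPM (MIA 3) in MIA libraries and from 35993 to 45165 CPM in control libraries. Of the synovial fibroblast list 7 of 12 genes were higher in MIA and 1 lower, of the macrophage list 10 of 11 higher, of the chondrocyte list 5 of 8 higher and of the adipocyte list 2 of 10 lower, while no gene of the endothelium list (9 tested) or the blood list (4 tested) was called. Over all genes tested, 21.3% were called higher and 19.6% lower, and the adipocyte count is near the latter share. Prg4, the lubricin gene that marks the synovial lining, was present in both groups, at 185 to 4837 CPM in MIA (mean 1785) and at a mean of 2384 CPM in control libraries. It was not called (log2 change −0.42 ± 0.97 SE, edgeR adjusted p = 0.755). The gene of the synovial fibroblast list with the highest mean, the collagen gene Col1a1, was called higher. It averaged 29950 CPM in MIA and 1318 CPM in control libraries (4.51 ± 0.80 SE, edgeR adjusted p = 0.00387). In tissue of mixed cells, more or fewer cells of a type and more or less RNA per cell cannot be told apart.

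Hif1a mRNA rose, Epas1 mRNA did not pass the test, and the other 8 genes split between both directions. Of the 10 genes, 7 passed the test (edgeR's quasi-likelihood F test, p adjusted by Benjamini and Hochberg over all 14054 genes tested and called under 0.05), against 40.9% of all genes tested. Higher in MIA were 2, Hif1a and Slc2a1, against a background of 21.3%, and lower were 5, namely Vegfa, Egln1, Egln3, Mxi1 and Bnip3, against 19.6%. The same 7 genes had groups that did not overlap in any library, which held for 49.2% of all genes (24.8% higher and 24.4% lower in MIA). The median log2 change of the 10 genes was −0.94, and that of all genes was 0.07.

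**Figure D1:**
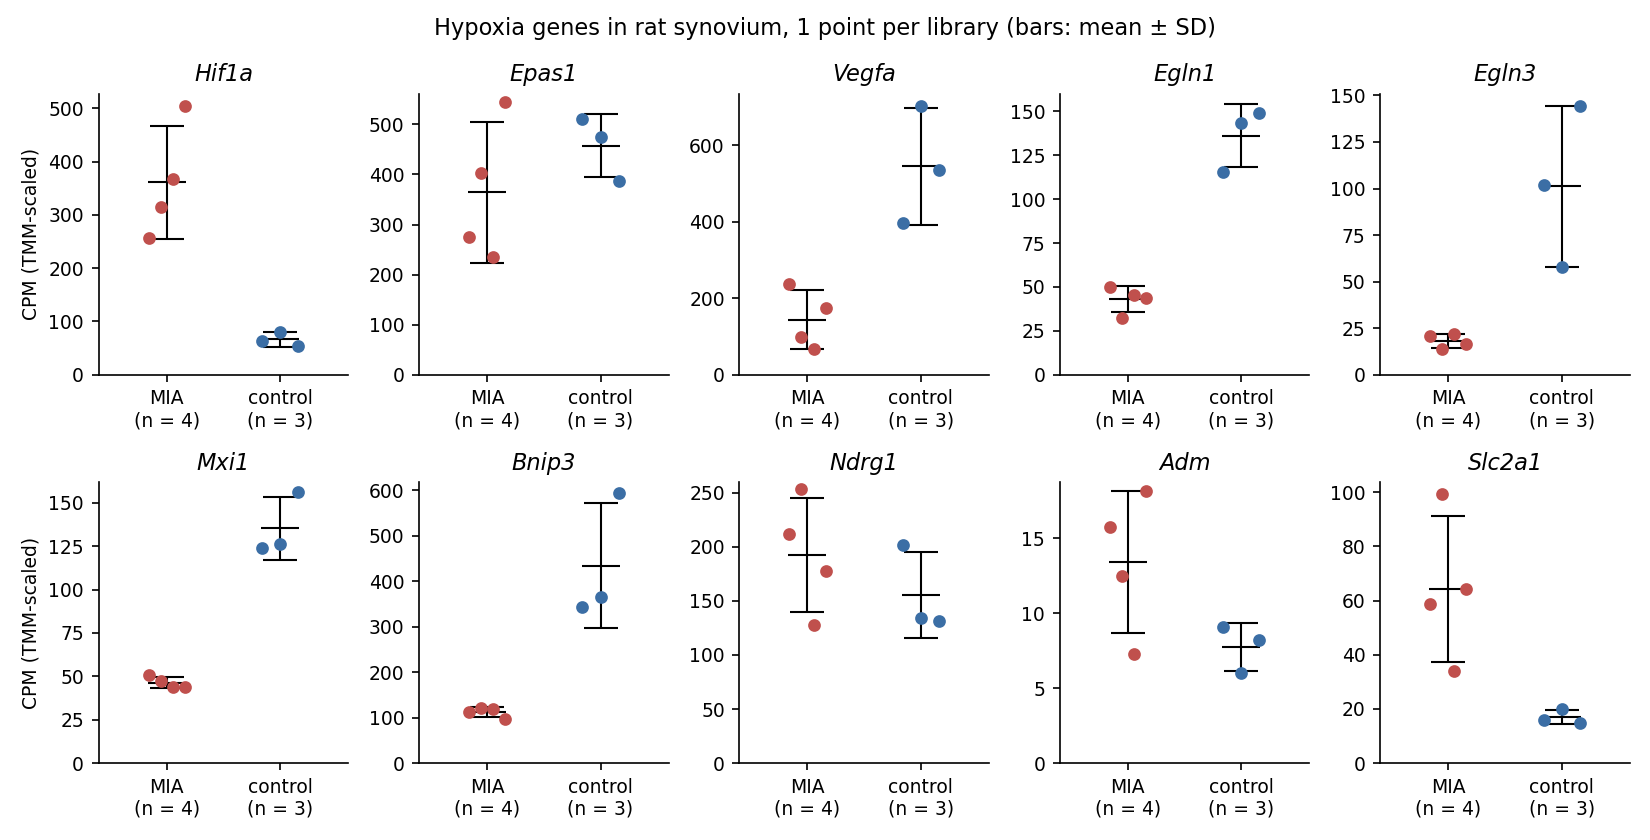
Level of each of the 10 genes in CPM (vertical axes, from 0) in the 4 MIA and 3 control libraries, 1 point per library, with the mean and SD as bars. MIA libraries lie above all controls for Hif1a and Slc2a1 and below all controls for Vegfa, Egln1, Egln3, Mxi1 and Bnip3, while the groups overlap for Epas1, Ndrg1 and Adm.

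Hif1a, the broadly expressed alpha subunit (ENSRNOG00000008292), was at 256, 315, 368 and 505 CPM in MIA 1 to 4, against 64.0, 80.7 and 53.7 CPM in control 2 to 4. The lowest MIA library was thus above the highest control. Mean levels were 361 ± 107 CPM in MIA (SD, n = 4) and 66.2 ± 13.6 CPM in control (SD, n = 3), a rise of 5.46-fold (log2 change 2.45 ± 0.30 SE, adjusted p = 0.00135).

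Epas1 encodes the other main alpha subunit (ENSRNOG00000021318). Its levels were 274, 403, 234 and 546 CPM in MIA 1 to 4 and 510.1, 474 and 387 CPM in control 2 to 4. MIA 1 and MIA 3 lay below every control, MIA 4 above every control and MIA 2 among them. The log2 change of −0.33 ± 0.32 SE did not pass (adjusted p = 0.442), and its 95% interval ran from −1.07 to 0.42; its sign turned to 0.10 when library totals replaced TMM scaling, and to 0.042 in limma on log2(FPKM + 1). MIA 4, the library with the most Epas1, also had the most RNA of the endothelium list, at 2521 CPM summed over 10 genes, where MIA 1 to 3 held 1372 to 1500.4 CPM and the controls 1028 to 1883 CPM. With the mean log2 level of that list as a covariate, the log2 change of Epas1 was −0.68 (adjusted p = 0.17), again not called.

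The balance between the alpha subunits was compared within each library, where the library size and its scaling cancel. Per length (FPKM rescaled with TMM factors), Hif1a stood at 64.2, 79.1, 92.4 and 127 in MIA 1 to 4 and at 16.1, 20.3 and 13.5 in control 2 to 4. Epas1 stood at 56.0, 82.3, 47.8 and 111 in the same MIA libraries and at 104, 96.8 and 79.1 in the controls. Epas1 therefore exceeded Hif1a in every control and in MIA 2 only among the MIA libraries. The ratio of Epas1 to Hif1a was 0.871, 1.04, 0.518 and 0.878 in MIA libraries and 6.48, 4.78 and 5.86 in controls. The mean log2 ratio was −0.32 ± 0.44 in MIA (SD, n = 4) and 2.50 ± 0.22 in control (SD, n = 3), so the ratio was lower in MIA by 2.82 on the log2 scale (exact two-sided permutation test, p = 0.0286, the smallest that 35 assignments can give; 0.0442 adjusted over 17 ratios between these genes). With the p counted as 2 times the smaller tail it was 0.0571 (exact permutation; 0.0694 adjusted), and without any 1 library this test cannot reach 0.05.

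**Figure D2:**
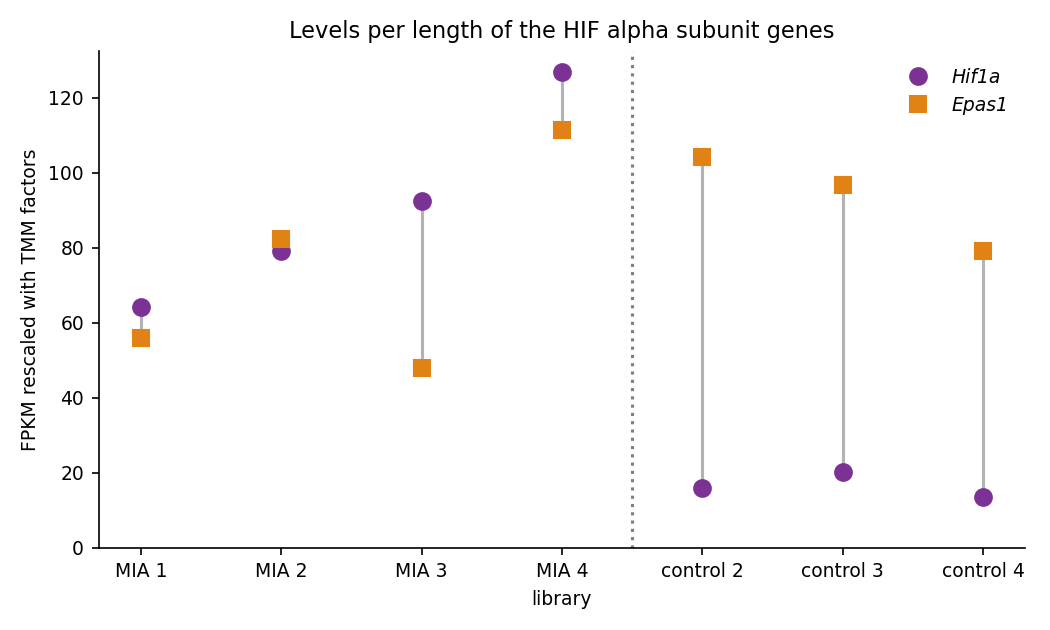
Levels of Hif1a (circles) and Epas1 (squares) per length, in FPKM rescaled with TMM factors, in each of the 7 libraries; the grey line joins the pair of values of 1 library. The pair is close in MIA 1, 2 and 4, with Hif1a higher in MIA 1, 3 and 4, and Epas1 is 4.78 to 6.48 times Hif1a in the controls.

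The order of the 10 genes by mean level per length was different in each group. In MIA libraries Hif1a led at 90.6 FPKM, followed by Epas1 (74.4), Bnip3 (69.6), Egln1 (64.1), Ndrg1 (61.1), Vegfa (40.7), Slc2a1 (24.8), Mxi1 (15.7), Adm (9.66) and Egln3 (6.44). Neighbours in this order had overlapping libraries, except that Mxi1 was above Adm in all of them. In control libraries the order ran from Bnip3 (269) through Egln1 (204), Vegfa (154), Epas1 (93.4), Ndrg1 (49.4), Mxi1 (46.0), Egln3 (36.0), Hif1a (16.6) and Slc2a1 (6.54) to Adm (5.59). There, the libraries of neighbours were separate between Vegfa and Epas1, Epas1 and Ndrg1, Egln3 and Hif1a, and Hif1a and Slc2a1. The level of Egln1 per length rests on a gene length of 0.669 kb in the deposited values, against 1.39 to 4.90 kb for the other genes.

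Both prolyl hydroxylase genes fell. Egln1, which encodes the hydroxylase that acts on HIF alpha in most tissues with normal oxygen supply (ENSRNOG00000019773), was at 50.1, 32.5, 45.6 and 43.4 CPM in MIA 1 to 4, against 116, 143 and 149 CPM in control 2 to 4. All MIA libraries were below all controls, and the log2 change was −1.67 ± 0.19 SE (adjusted p = 0.00112). Egln3, a hydroxylase that is itself strongly induced by HIF in many cells (ENSRNOG00000005053), was at 20.8, 13.6, 21.8 and 16.3 CPM in MIA 1 to 4 and at 102, 57.9 and 144 CPM in control 2 to 4. Control 3 was the lowest control, and even it was above the highest MIA library. This fall was the largest of the 10 genes, 5.58-fold lower in MIA (log2 change −2.48 ± 0.31 SE, adjusted p = 0.0014).

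Vegfa, the growth factor that drives new vessels and a textbook HIF target (ENSRNOG00000019598), was at 236, 98.4, 66.7 and 176 CPM in MIA 1 to 4. Control 2 to 4 held 396, 703 and 534 CPM. The MIA libraries spread 3.54-fold among themselves, the widest of the 10 genes, and stayed below the controls. Means were 144 ± 76.4 CPM in MIA (SD, n = 4) and 544 ± 154 CPM in control (SD, n = 3), 3.78-fold lower in MIA (log2 change −1.92 ± 0.44 SE, adjusted p = 0.0102).

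Adm encodes adrenomedullin, a vasodilator peptide induced by hypoxia (ENSRNOG00000027030). It was low throughout, at 15.7, 12.5, 7.25 and 18.1 CPM in MIA 1 to 4 and 9.10, 5.98 and 8.18 CPM in control 2 to 4. MIA 1, 2 and 4 were above every control, and MIA 3 lay among the controls. The log2 change of 0.79 ± 0.33 SE did not pass (adjusted p = 0.0889), with a 95% interval from 0.03 to 1.55 before adjustment. It passed without MIA 3 (0.98, adjusted p = 0.0194), under limma on log2(FPKM + 1) (1.02, 0.0201) and under scaling by library totals (1.21, 0.0182), and its adjusted p ran up to 0.322 over all alternatives.

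Bnip3, a mitochondrial protein that promotes mitophagy (ENSRNOG00000017243), was at 113, 121, 120.2 and 96.1 CPM in MIA 1 to 4, against 344, 366 and 594 CPM in control 2 to 4. It was 3.86-fold lower in MIA (log2 change −1.95 ± 0.25 SE, adjusted p = 0.00141). Mxi1, a Max-binding antagonist of Myc that HIF can induce (ENSRNOG00000034078), was at 50.5, 47.2, 43.9 and 43.7 CPM in MIA 1 to 4, against 124, 126 and 156 CPM in control 2 to 4, a log2 change of −1.55 ± 0.16 SE (adjusted p = 0.000902). The MIA libraries of both genes lay close together, with the highest only 1.16 times the lowest for Mxi1, the narrowest spread of the 10 genes.

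Slc2a1, which encodes the glucose transporter GLUT1 (ENSRNOG00000007284), was the only one of the 10 genes besides Hif1a to rise. Its levels were 58.9, 99.5, 34.1 and 64.1 CPM in MIA 1 to 4, against 16.1, 19.96 and 14.8 CPM in control 2 to 4. MIA 2 was the highest and MIA 3 the lowest of the MIA libraries, all above the controls, and the rise was 3.78-fold (log2 change 1.92 ± 0.34 SE, adjusted p = 0.00404). The synovial fibroblast list summed to 46374, 57608, 22562 and 41185 CPM in MIA 1 to 4, against 6647 to 9473 CPM in controls. The macrophage list summed to 752 to 1799 CPM in MIA and 423 to 565 CPM in controls. The part of these lists in the rises of Slc2a1 and Hif1a was not tested. Ndrg1, a stress-responsive gene induced by hypoxia in many cell lines (ENSRNOG00000007393), was at 211, 253, 128 and 178 CPM in MIA 1 to 4 and at 201, 134 and 131 CPM in control 2 to 4. The groups overlapped, the log2 change was 0.31 ± 0.28 SE (adjusted p = 0.406), and the 95% interval ran from −0.34 to 0.95.

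**Figure D3:**
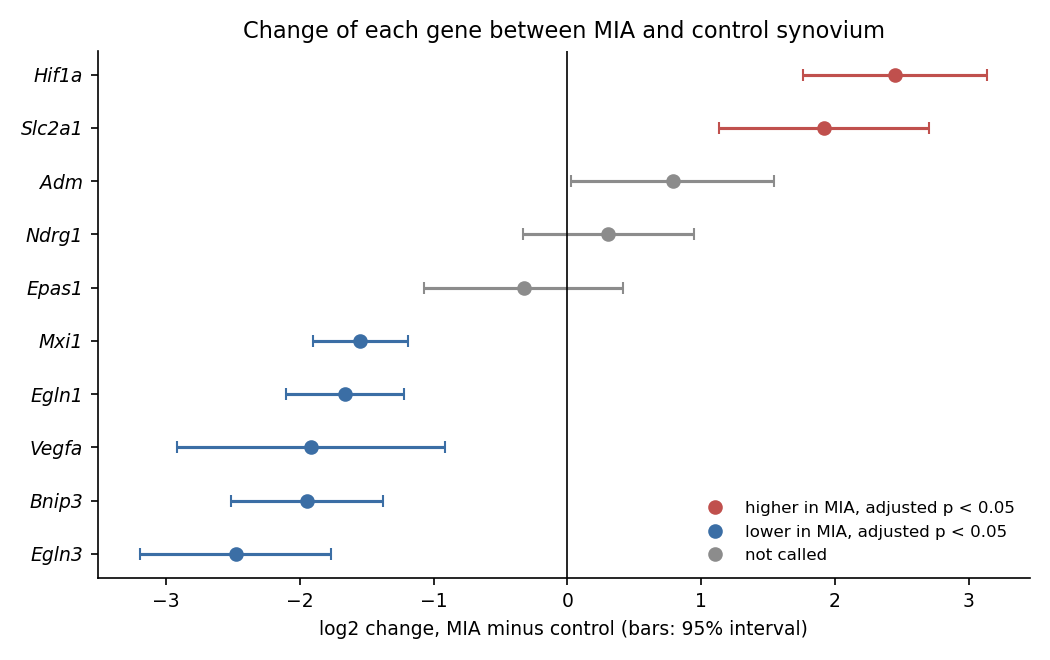
Log2 change of each gene, MIA minus control, from the fit over all genes, with its 95% interval before adjustment (horizontal axis), ordered by size from top to bottom. Hif1a (2.45) and Slc2a1 (1.92) are to the right of 0, and Mxi1, Egln1, Vegfa, Bnip3 and Egln3 are to the left, between −1.55 and −2.48.

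Set against each factor within a library, most of these genes lost ground to Hif1a. The ratios of Vegfa, Egln1, Egln3, Mxi1, Bnip3 and Ndrg1 to Hif1a were lower in MIA by 2.13 (Ndrg1) to 4.83 (Egln3) on the log2 scale, with no overlap between groups, and each had an exact permutation p of 0.0286 (0.0442 adjusted over the 17 ratios). The ratio of Adm to Hif1a was lower by 1.69 (exact permutation p = 0.0571, adjusted 0.0747). The ratio of Slc2a1 to Hif1a differed by −0.59, with overlapping groups (exact permutation p = 0.343, adjusted 0.343), and by −0.89 without MIA 2 and −0.30 without MIA 3. Against Epas1, the ratios of Slc2a1 (2.23) and Adm (1.13) were higher in MIA, those of Egln3 (−2.01) and Mxi1 (−1.14) lower (exact permutation, adjusted p = 0.0442 each), and those of Bnip3, Egln1, Vegfa and Ndrg1 did not pass, with adjusted p from 0.0747 to 0.121. In all, 11 of the 17 ratios passed, and 0 did with the p counted as 2 times the smaller tail. With the muscle level as a covariate, in limma with the spread pooled over the ratios, 10 passed, and not the same ones. That fit changed the test as well as adding the covariate. Limma without the covariate was not run on the ratios, so the parts of test and covariate cannot be told apart. There the ratios to Hif1a of Adm (−2.06, adjusted p = 0.00925) and Slc2a1 (−1.60, adjusted p = 0.0415) passed too. Of the 4 ratios to Epas1 that had passed, only that of Slc2a1 did (1.68, adjusted p = 0.0356), and those of Egln3 (−1.44, adjusted p = 0.066), Adm (1.23, adjusted p = 0.101) and Mxi1 (−0.97, adjusted p = 0.192) did not. The 16 ratios to a factor share that factor's counts, and the direction of most follows from the changes of the single genes given above.

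The genes that fell had skeletal muscle transcripts moving beside them. The muscle list was at 344 to 36997 CPM in MIA and 145562 to 180711 CPM in control libraries, so its part in the falls cannot be told apart from the group. Across the MIA libraries the muscle sum differed 108-fold, between MIA 2 and MIA 3. In MIA 2 and MIA 3, Bnip3 was at 121 and 120.2 CPM, Mxi1 at 47.2 and 43.9 CPM, Egln1 at 32.5 and 45.6 CPM, Egln3 at 13.6 and 21.8 CPM and Vegfa at 98.4 and 66.7 CPM. When the mean log2 level of the muscle list entered the fit as a covariate, the log2 changes were −1.59 for Mxi1, −2.01 for Bnip3, −1.31 for Egln1 and −2.13 for Egln3, all still called (adjusted p from 0.0141 to 0.0259), and 2.70 for Hif1a (0.0122). Vegfa (−1.58, adjusted p = 0.149) and Slc2a1 (1.11, adjusted p = 0.0582) lost their calls there. The covariate separates the groups and leans on MIA 2, so this fit cannot tell the muscle level from the group. In the fit without the covariate and without MIA 2 the 7 calls held, with Vegfa at −1.76 (adjusted p = 0.018) and Slc2a1 at 1.64 (0.00329).

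**Figure D4:**
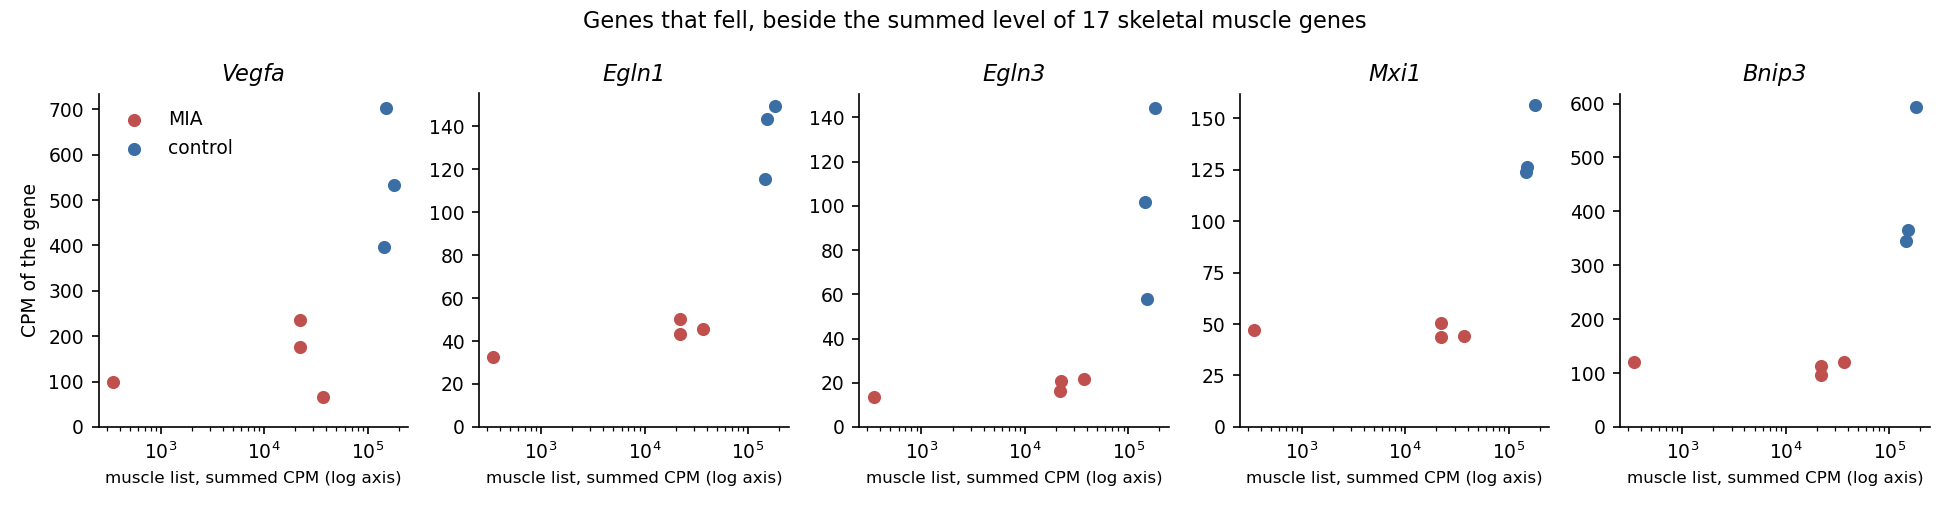
CPM of each gene that fell (vertical axes, linear from 0) against the summed CPM of 17 skeletal muscle genes (horizontal axis, log scale), 1 point per library. The 4 MIA libraries span 344 to 36997 CPM of muscle genes, and the 3 controls lie to the right of and above them in every panel.

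Among other genes of the HIF machinery, 13 were tested, 0 were higher and 3 lower in MIA, with a median log2 change of −0.22 against 0.07 for all genes. The number lower is near the 19.6% of all genes that were lower. Those 3 were Cited2, which competes with HIF for its coactivators, at 40.0 ± 8.63 CPM in MIA (SD, n = 4) and 179 ± 7.21 CPM in control (SD, n = 3; log2 change −2.16 ± 0.20 SE, adjusted p = 0.000859), Cul2, the cullin of the von Hippel-Lindau ligase (−0.71 ± 0.15 SE, adjusted p = 0.00661), and Egln2, the remaining prolyl hydroxylase of the family (−0.73 ± 0.18 SE, adjusted p = 0.0149). All 3 had groups that did not overlap. The call of Cul2 was lost with library totals (−0.26, adjusted p = 0.176), limma on log2(FPKM + 1) (−0.25, 0.198) and the muscle covariate (−0.52, 0.126). Egln2 kept its call in 11 of 18 alternatives, with adjusted p up to 0.306, and lost it among others with the muscle covariate (−0.48, 0.222), without MIA 1 (0.0543) and without control 4 (0.0576). With library totals the list had 4 genes higher and 1 lower, and with the muscle covariate 1 lower. Arnt, the shared partner of the alpha subunits, averaged 31.6 CPM in MIA and 24.5 CPM in control libraries (0.37 ± 0.17 SE, adjusted p = 0.121), and Vhl at 36.8 CPM in MIA and 27.2 CPM in control libraries (0.44 ± 0.20 SE, adjusted p = 0.121). Both were picked after their values were seen, and both were called higher with library totals (Arnt 0.82, adjusted p = 0.00883; Vhl 0.86, adjusted p = 0.00829).

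Glucose transport and glycolysis genes were called in both directions. Of 16 tested, 5 were higher and 8 lower in MIA, with a median log2 change of −0.70, where 21.3% of all genes tested were higher and 19.6% lower. Aldoa, the muscle-type aldolase, was at 1759 ± 834 CPM in MIA (SD, n = 4) and 12345 ± 1291 CPM in control (SD, n = 3; log2 change −2.81 ± 0.56 SE, adjusted p = 0.00596). Gpi, glucose-6-phosphate isomerase, was at 389 ± 76.0 CPM in MIA and 1119.9 ± 138 CPM in control libraries (−1.52 ± 0.26 SE, adjusted p = 0.00353). Pfkl, the liver-type phosphofructokinase, rose to 85.6 ± 13.3 CPM in MIA, against 35.6 ± 11.7 CPM in control (1.27 ± 0.26 SE, adjusted p = 0.00701). MIA 2, with the least muscle RNA, also held the least Aldoa, 629 CPM where the other MIA samples held 1739 to 2605 CPM. The muscle sums given above stand beside these falls too, and their part cannot be told apart from the group. With the muscle covariate 0 genes of this list were higher and 2 lower, with Aldoa at −1.71 (adjusted p = 0.0592) and Pfkl at 1.06 (0.0874). That fit called fewer genes of every kind, 2289 in place of 5751, and does not separate the muscle level from the group. The number higher was 1 without control 4 and 3 without MIA 1, MIA 2, MIA 4 or control 3, and the number lower was 5 without control 3.

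Of 26 other HIF targets tested, 10 were higher and 1 lower, and the median log2 change was 0.86. Among all genes tested, 21.3% were higher and 19.6% lower. Lox, the collagen cross-linking lysyl oxidase, was at 1082, 440.4, 449 and 405 CPM in MIA 1 to 4, against 34.9, 18.6 and 22.9 CPM in control 2 to 4 (log2 change 4.54 ± 0.50 SE, adjusted p = 0.00101). Hmox1, haem oxygenase, was at 554, 86.9, 169.7 and 398 CPM in MIA and 11.1, 30.5 and 10.6 CPM in control libraries (4.12 ± 0.76 SE, adjusted p = 0.0046). Plod2, a collagen lysyl hydroxylase, rose 6.23-fold (2.64 ± 0.40 SE, adjusted p = 0.00235). These genes respond to other signals as well, and markers of other cell types moved beside them, with a macrophage list at 752 to 1799 CPM in MIA and 423 to 565 CPM in control libraries and a synovial fibroblast list at 22562 to 57608 CPM in MIA and 6647 to 9473 CPM in control libraries; their part was not tested. The 1 gene that fell was the histone demethylase Kdm4b (−0.85 ± 0.16 SE, adjusted p = 0.00482), named after its value was seen. It was not called with the muscle covariate (−0.82, adjusted p = 0.0631), library totals (−0.41, 0.0711) or limma on log2(FPKM + 1) (−0.38, 0.0889). Without control 4 the list had 4 genes higher, without control 3 it had 6, and with the muscle covariate 3.

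Receptors for the 2 secreted products were measured as well: 3 of 8 were higher in MIA and 0 lower (median log2 change 0.54). The shares over all genes tested were 21.3% higher and 19.6% lower. Ramp3, an accessory protein that turns the calcitonin-like receptor into an adrenomedullin receptor, was at 23.2, 7.21, 24.6 and 13.1 CPM in MIA 1 to 4, against 0.980, 1.41 and 1.64 CPM in control 2 to 4 (log2 change 3.67 ± 0.50 SE, adjusted p = 0.00171). Its control values were near the floor, so the size of its rise is uncertain. The VEGF co-receptors Nrp1 (1.08 ± 0.21 SE, adjusted p = 0.00547) and Nrp2 (1.02 ± 0.31 SE, adjusted p = 0.0296) were about 2-fold higher, at 2.12 and 2.03 times the control level. The rest of the list was not called. Flt1 was at 0.39 (edgeR adjusted p = 0.474), Kdr at 0.49 (0.272), Calcrl at 0.16 (0.662) and Ackr3 at 0.59 (0.171). Ramp2, another receptor gene of the list, leaned the other way (−1.08, edgeR adjusted p = 0.0944). Nrp1 was not called with the muscle covariate (0.84, adjusted p = 0.0736), where 1 gene of the list was higher. Nrp2 kept its call in 13 of 18 alternatives and was, among others, not called without control 2 (0.85, adjusted p = 0.102), without control 4 (0.94, adjusted p = 0.112), with the endothelium covariate (1.08, adjusted p = 0.0765) or with the muscle covariate (0.45, adjusted p = 0.421).

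**Figure D5:**
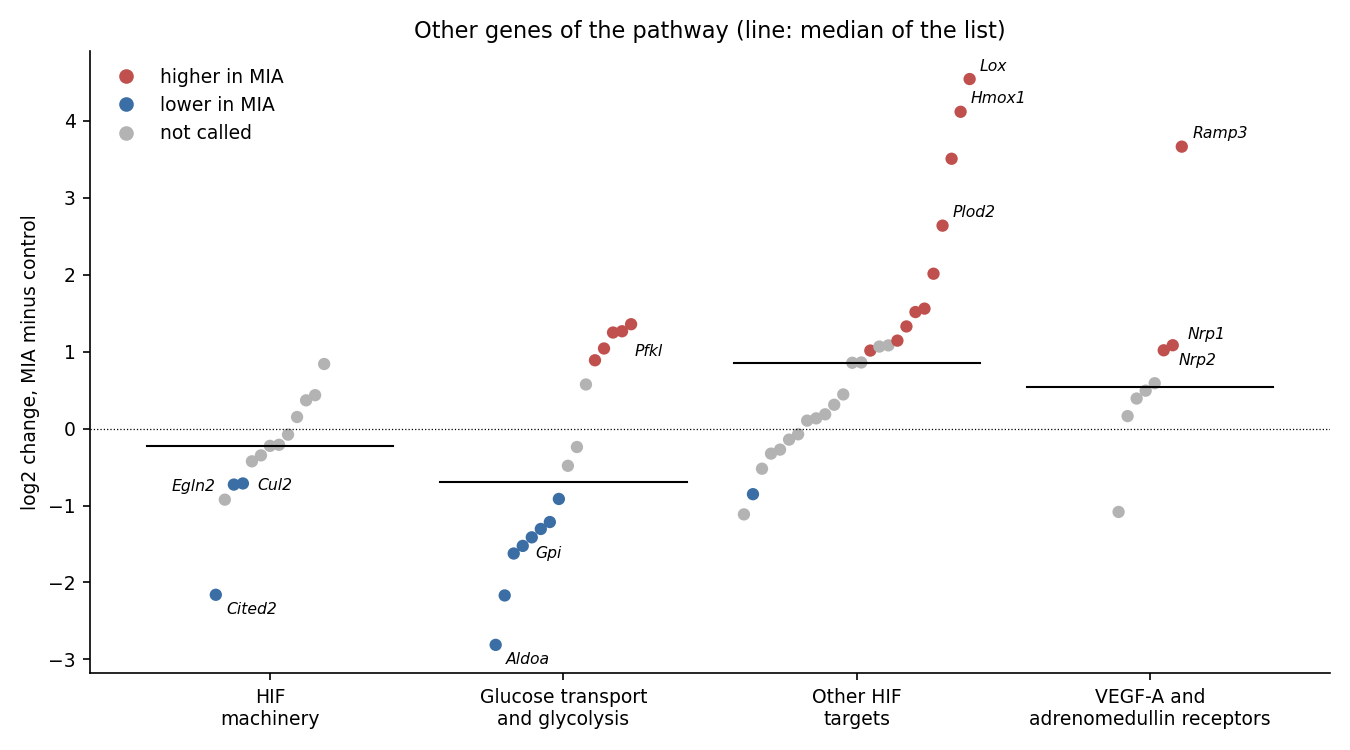
Log2 change, MIA minus control, of each tested gene in 4 lists of the HIF pathway (vertical axis), with called genes coloured and the median of each list as a line; the 3 genes with the smallest p of each list are named. The medians are −0.22, −0.70, 0.86 and 0.54 from left to right.

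The library profiles of the alpha subunits were set beside those of 12848 other genes by the root mean square difference of log2 CPM over the 7 libraries, each gene centred on its own mean. Closest to Hif1a were Vwa1, a matrix protein gene, at 0.23, Apln, which encodes the peptide apelin, at 0.30, and Smoc2, a matricellular protein gene, at 0.30. Apln was at 28.5, 17.9, 22.0 and 30.9 CPM in MIA 1 to 4 and at 4.201, 5.36 and 3.60 CPM in control 2 to 4. Closest to Epas1 were Lrp5, a Wnt co-receptor gene, at 0.10, Kcns3, a potassium channel subunit gene, at 0.11, and Cntf, which encodes a neurotrophic factor, at 0.14. Lrp5 was at 52.9, 71.7, 45.4 and 88.1 CPM in MIA and 99.6, 89.9 and 77.7 CPM in control libraries, again highest in MIA 4 among MIA libraries and highest in control 2 among controls. These are the nearest of many profiles over few libraries and were not tested.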

How the data were processed

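RNA-seq libraries of 7 synovium samples were made from 1.5 µg of RNA each. The build Rnor_6.0 and the tools HTSeq 0.11.2, HISAT2 and DESeq2 1.26.0 appear, with no role, in the submitters' processing notes. Whether counting used strand, and which annotation, is not stated in the labels; overlapping genes on opposite strands are therefore uncertain. The deposited table holds whole-number counts per gene, per the file headers. It also holds FPKM values, per the file headers, with no formula; computed back, they equal counts per gene length and library total, with the same length in all libraries for 18593 of 18593 genes (tolerance 1e-09).

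Counts were tested with edgeR 4.0.16 in R 4.3.3: filterByExpr, TMM factors (1.06 to 1.23 in MIA and 0.801 to 0.903 in control libraries), the quasi-likelihood F test and Benjamini-Hochberg adjustment, called under 0.05. SE is the size of the log2 change over the root of its F statistic, and 95% intervals use the degrees of freedom of the fit. CPM are relative to TMM-scaled library sizes; the profile comparison used log2(CPM + 0.5). Levels per length divide CPM by the length behind the deposited FPKM. Ratios within a library were tested by exact permutation, two-sided by the absolute difference. The fit was also run on simulated counts that held no difference in cell content, and that outcome is not given here.

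The 10 genes, the lists and the alternatives were chosen with earlier results of these data known. Named were the 10 genes, the 3 genes with the smallest p of each of 4 pathway lists, the most abundant gene of a tissue list where used, and the 3 nearest profiles to Hif1a and to Epas1. Prg4 and the receptor genes that were not called were named outside these rules. Of 68 pathway list entries 66 were found by symbol. Alternatives were other scalings (median of ratios, library totals, without muscle, blood and mitochondrial genes), DESeq2 1.42.0, limma-voom and limma on log2(FPKM + 1) (limma 3.58.1), other filters, a replicate block, a muscle or endothelium covariate, each library left out, and, added after the data were seen, another two-sided p for the ratios and the same alternatives for the 8 further genes named after their values were seen. Ratios, tables and figures were made in Python 3.11.15 (matplotlib 3.10.9, scipy 1.17.1, pandas 2.3.3).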

Additional observations from a re-analysis of the deposited data

Results flagged for a closer look

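In 4 of the 56 sets of 4 MIA values checked, 1 library lay far from the other 3: its gap to the nearest value, over the whole range, was above Dixon's 95% critical value. Chance flags about 1 in 20 such sets. Lox was at 1082 CPM in MIA 1, where MIA 2 to 4 held 405 to 449 CPM. The endothelium list summed to 2521 CPM in MIA 4, against 1372 to 1500.4 CPM in the others. In MIA 1 the ratio per length of Vegfa to Epas1 was 1.19, against 0.337 to 0.444, and that of Adm to Epas1 was 0.203, against 0.109 to 0.117. MIA 1 thus held more Vegfa and Adm per Epas1 than any other MIA library, and its Vegfa ratio lay among the control values of 1.07 to 2.05.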

How the results depend on the processing

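Hif1a (log2 change 2.14 to 2.90) and the falls of Egln1 (−1.78 to −1.22), Egln3 (−2.77 to −1.83), Mxi1 (−1.61 to −1.06) and Bnip3 (−2.10 to −1.46) kept direction and call under all 18 alternatives. None of the 18 can tell the muscle level from the group. With the muscle covariate 2289 genes were called in place of 5751, 1 of the 10 genes was higher in place of 2, and 7 pathway list genes were called in place of 30. There Ndrg1 was at −0.26, Bnip3l at −0.41 and Kdm3a at 0.21. Under library totals Epas1 turned to 0.10, Kcns3 to 0.20, Cntf to 0.14 and Kdm3a to 0.37, and under limma on log2(FPKM + 1) to 0.042, 0.13, 0.072 and 0.33. Library totals moved the median of all genes to 0.51 and the share of calls that were higher to 78.0%, against 52.1%. Leaving out 1 library gave 3399 (without control 4) to 5724 called genes, 3628 without control 3, and 16 to 34 pathway list genes; Bnip3l then lay between −0.0078 and 0.29 and Kdm3a between −0.14 and 0.029. The ratio of Epas1 to Hif1a then lay between −2.95 and −2.61 and 0 of the 17 ratios passed, since the smallest p is then 0.0667 or 0.1 by exact permutation. Counting the p as 2 times the smaller tail gave −2.82 (not passed) and 0 ratios. With the replicate block the ratio was −2.86 over 3 same-numbered pairs and 0 ratios passed; in the fit over all genes 4555 were called, including the same number of the 10 genes (2 higher, 5 lower), Bnip3l was at −0.025, and the calls of Egln2, Nrp2 and Hilpda were lost (adjusted p = 0.0598, 0.0587 and 0.0711). Deviations of same-numbered libraries had correlations of 0.268, 0.109 and 0.0432, all positive, and 0.268 was the highest of all pairs. Libraries of unlike number ran from −0.254 (MIA 3 with control 2) to 0.206 (MIA 3 with control 4). These values do not settle whether the numbers are pairs, and the main fit did not take them as pairs. Adm had the lowest mean CPM of the 10 genes in both groups, so counting error weighs more there.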

Other observations

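A few further genes were picked after their values were seen. Bnip3l, the closest relative of Bnip3 and another mitophagy receptor, averaged 128 CPM in MIA and 117 CPM in control libraries (log2 change 0.13 ± 0.27 SE, edgeR adjusted p = 0.716), and Bnip3 fell by 1.95; the sign of Bnip3l turned in 3 of 18 alternatives. Pgf, a VEGF family ligand, rose to 14.3 CPM in MIA, against 4.83 CPM in control libraries (1.56 ± 0.47 SE, adjusted p = 0.0292), and Vegfa fell by 1.92. Car9, a carbonic anhydrase often used to mark hypoxic cells, rose to 5.95 CPM in MIA, against 0.507 CPM in control libraries (3.51 ± 0.90 SE, adjusted p = 0.0162). Its libraries ran from 1.51 to 12.1 CPM in MIA and from 0.0818 to 0.910 CPM in control, near the floor, so the size of its rise is uncertain. Hilpda, a lipid droplet protein gene of the hypoxia response, rose to 8.32 CPM in MIA, against 3.31 CPM in control libraries (1.33 ± 0.35 SE, adjusted p = 0.0175). Kdm3a, a histone demethylase and HIF target, averaged 45.8 CPM in MIA and 48.2 CPM in control libraries (−0.07 ± 0.16 SE, adjusted p = 0.74). The calls of Pgf, Car9 and Hilpda held in 14 of 18 alternatives each. All 3 were lost with the muscle covariate (adjusted p = 0.153 for Pgf, 0.182 for Car9 and 0.203 for Hilpda) and without control 4 (0.105, 0.0561 and 0.0594). Pgf (0.105) and Car9 (0.0611) also lost theirs without control 3, and under limma-voom (0.0756 and 0.0766), and Hilpda among others without control 2 (0.0597). The difference between Bnip3 and Bnip3l, and that between Vegfa and Pgf, were not tested.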
